A study of Mus musculus with 6 samples.

Results

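The Id genes, the inhibitory Smad genes and Bambi, 7 genes that respond to bone morphogenetic protein (BMP) signals, were followed on Illumina whole-genome bead arrays of mouse embryonic mouth tissue. The members were named by gene symbol (Id1, Id2, Id3, Id4, Smad6, Smad7 and Bambi), and all 7 were present among the 19057 genes measured. Each is represented by the probe with the highest mean signal over the 6 arrays, here called the main probe, and the other probes of Id2 and Id4 are shown beside it. None of the 7 passed the test between the tissues at its main probe, where 5.81% of all genes did. Id3, Id4 and Smad6 were 1.16 to 1.20-fold higher on average in the tooth germ, and Id1 gave a fold of 1.00 with both tissues of 1 litter low. A second probe of Id4 did pass, where 3.5% of all probes did.

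The arrays compared lower molar tooth germs with oral tissue of the mandible that was labelled as holding neither tooth nor bone, with tooth and other tissue taken from the same embryos. All embryos were outbred CD-1 mice of embryonic day 13.5, and the labels name no mutation or treatment. Each group had 3 arrays, every array held RNA pooled over several embryos, and arrays of the same number came from the same litter, which gives 3 pairs. Whole pieces of tissue were used, so epithelium and mesenchyme were not separated. Precision is limited by the small number of arrays.

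The labels disagree on which arrays are which. Titles and descriptions call 3 arrays tooth germ, whereas the source and tissue fields give that name to the other 3. The groups are named here by title, and all differences would change sign under the other fields. In the titled tooth germ arrays Msx1, a homeobox gene of dental mesenchyme, was higher by 1.47 on the log2 scale (SE 0.138, limma adjusted p = 6.3e-05) and Shh, a ligand of dental epithelium, by 0.78 (SE 0.123, adjusted p = 0.0022). Myod1, a master regulator of muscle, was lower there, with a log2 difference of -1.47 (SE 0.102, adjusted p = 1.6e-05), as was the sarcomeric actin gene Actc1 at -2.52 (SE 0.213, adjusted p = 3.7e-05). Of the marker lists, 3 of 3 dental epithelium genes, 5 of 8 dental mesenchyme genes and 6 of 8 surface epithelium genes were called higher, and 7 of 8 skeletal muscle, 4 of 6 neuronal and glial, 7 of 7 macrophage and 1 of 8 endothelial genes were called lower. The mean signal of the muscle list ran from 8.93 to 9.16 in tooth germ and from 10.28 to 10.99 in oral tissue, and that of the surface epithelium list from 10.61 to 10.75 in tooth germ and from 9.89 to 10.07 in oral tissue. For endothelium, where Id1, Id3 and Smad6 are known to be expressed, the list mean ran from 8.83 to 8.89 in tooth germ and from 8.94 to 9.14 in oral tissue. Fewer cells of a type and less RNA per cell cannot be told apart in such samples, and the part of tissue makeup in the values below was not tested.

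BMP ligands bind paired receptor kinases, which phosphorylate Smad1, Smad5 and Smad9. These join Smad4 and switch on target genes, of which the Id genes are among the most direct. Id proteins have a helix-loop-helix domain but no DNA-binding region, so they capture E proteins and keep other basic helix-loop-helix factors off DNA. Smad6, Smad7 and Bambi are induced by the same pathway and dampen it. Smad6 blocks BMP signals in particular, Smad7 blocks BMP and TGF-beta signals alike, and Bambi is a membrane protein that resembles a type I receptor without a kinase. In the early tooth, Bmp4 passes between epithelium and mesenchyme and sustains Msx1.

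Promoters of 4 members (Id2, Id3, Id4 and Smad6) were taken from RefSeq (GRCm38.p6), each covering 250 bases before and 50 after the start of transcription. Smad7 and Bambi were left out of this selection, and no entry was found for Id1. Letters known from Smad binding were searched on both strands, namely the palindromes GTCTAGAC, a Smad-binding element, and GGCGCC, the GC-rich form used by BMP Smads in Id promoters. The stretches that hold a match are shown because 3 of the 4 promoters contain one, with the match in capitals, each read 5′ to 3′ on the strand of the gene. They lie at chr9:64022056-64022205 on the minus strand for Smad6, at chr12:25096193-25096342 on the minus strand for Id2 and at chr13:48260916-48261065 on the plus strand for Id4.
Smad6: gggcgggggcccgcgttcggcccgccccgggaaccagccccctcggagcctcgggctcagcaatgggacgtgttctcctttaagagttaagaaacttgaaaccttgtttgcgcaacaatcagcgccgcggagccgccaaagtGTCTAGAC
Id2: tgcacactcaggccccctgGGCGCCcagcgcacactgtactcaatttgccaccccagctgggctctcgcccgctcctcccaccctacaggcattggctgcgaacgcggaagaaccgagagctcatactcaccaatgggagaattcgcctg
Id4: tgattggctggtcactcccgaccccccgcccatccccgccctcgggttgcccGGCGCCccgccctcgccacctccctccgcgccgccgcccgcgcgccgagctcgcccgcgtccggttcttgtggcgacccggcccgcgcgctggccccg

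The Smad6 match spans the annotated start, with 4 of its letters before it and 4 from it on. GTCTAGAC was present in 0.213% of the 32851 promoters of the table. GGCGCC began 231 bases before the start of Id2 and 148 bases before that of Id4, and was present in 11.9% of all promoters. The Id3 promoter held neither in this window. A match is a string of letters and not a measured binding site.

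Values are signals on a log2 scale, and a difference is tooth germ minus oral tissue. A gene was called when its limma p-value, adjusted by the Benjamini-Hochberg method over all 19057 genes, was under 0.05. Of the 7 members 0 were called, where 5.81% of all genes were called and 2.39% were called higher in tooth germ. At an unadjusted p under 0.05, 3 of the 7 (Id3, Id4 and Smad6) were higher in tooth germ, against 8.25% of all genes. The members' median difference was 0.15, and that of all genes was 0.0026. The members were chosen with earlier results of these data known, and whether they differ from all genes was not tested. With litter as a block 0 of the 7 were called as well, where 8.88% of all genes were.

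**Figure D1:**
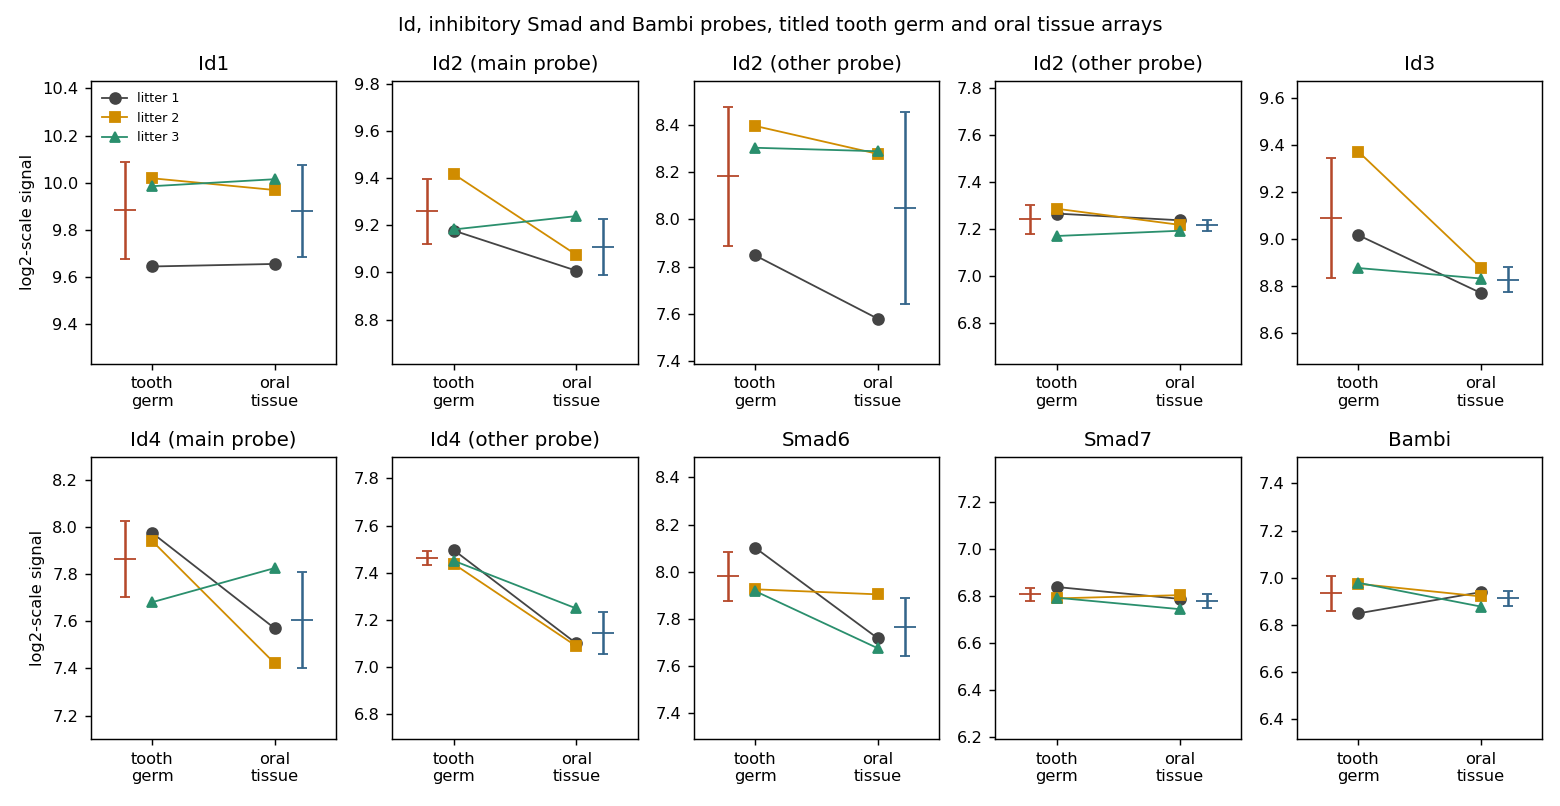
Log2-scale signal of the 10 probes of the 7 genes on each array, tooth germ on the left and oral tissue on the right of each panel, with lines joining arrays of the same litter and bars giving mean ± SD (n = 3). Each panel spans the same height. Litter 1 lies low in both tissues for Id1, and all lines of the second Id4 probe descend from tooth germ to oral tissue.

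Id1, the Id gene most used as a readout of BMP activity, had signals of 9.64, 10.02 and 9.99 in tooth germ arrays 1, 2 and 3, against 9.66, 9.97 and 10.01 in oral tissue arrays 1, 2 and 3. The groups overlapped almost entirely, and both arrays of litter 1 lay below the other 4. The mean was 9.88 ± 0.207 in tooth germ and 9.88 ± 0.196 in oral tissue (SD, n = 3 each), a difference of 0.0031 (SE 0.121, adjusted p = 0.995). Its 95% interval, from the fit without litter, ran from -0.26 to 0.27, or from 0.833-fold to 1.21-fold. With litter as a block in limma the SE was 0.0698 (adjusted p = 0.989). Within litters the largest difference between the tissues was 0.050, whereas the litter means, at 9.65, 9.99 and 10.00, spanned 0.35. The litter spread was not tested.

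Id2, the Id gene linked to epithelial and lymphoid precursors, had 9.18, 9.42 and 9.18 in tooth germ and 9.01, 9.07 and 9.24 in oral tissue at its main probe. The tooth germ was higher in litters 1 and 2 and lower in litter 3, and the groups overlapped. The difference was 0.15 (SE 0.0944, 95% interval -0.05 to 0.36, adjusted p = 0.468). A second Id2 probe had 7.85, 8.40 and 8.30 in tooth germ and 7.58, 8.28 and 8.29 in oral tissue (difference 0.13, adjusted p = 0.818 over all probes). Both arrays of litter 1 were again low at this probe, by more than any difference between the tissues. The third probe ran from 7.17 to 7.29 in tooth germ and from 7.19 to 7.24 in oral tissue (difference 0.025, adjusted p = 0.879).

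Id3, which acts alongside Id1 in vessels and precursors, had 9.02, 9.37 and 8.88 in tooth germ and 8.77, 8.88 and 8.83 in oral tissue. All tooth germ values lay above all oral tissue values, but by 0.0004 between the nearest arrays, far less than the spread between replicates. The tooth germ arrays were also the more variable, at 9.09 ± 0.255 against 8.83 ± 0.0532 (SD, n = 3 each). The difference was 0.26, or 1.20-fold (SE 0.113, 95% interval 0.01 to 0.51, adjusted p = 0.259). It was positive in all 3 litters, at 0.25, 0.49 and 0.04. Tooth germ array 2 carried much of it, since without that array the difference was 0.12 (adjusted p = 0.601).

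Id4, the member of the family that in some settings counters the other Id proteins, had 7.98, 7.94 and 7.68 in tooth germ and 7.57, 7.42 and 7.83 in oral tissue at its main probe. Litters 1 and 2 were higher in tooth germ by 0.41 and 0.52, and litter 3 went the other way at -0.15. The difference was 0.26, also 1.20-fold (SE 0.107, 95% interval 0.03 to 0.49, adjusted p = 0.228). Without both arrays of litter 3 it was 0.46 and was called (adjusted p = 0.0154), where 3.51% of all genes were.

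The second Id4 probe had 7.50, 7.44 and 7.45 in tooth germ and 7.10, 7.09 and 7.25 in oral tissue. The groups did not overlap, and the tooth germ was higher in 3 of 3 litters, by 0.40, 0.35 and 0.20. The difference was 0.32, or 1.25-fold (SE 0.0522, 95% interval 0.20 to 0.43, limma adjusted p = 0.0039 over all 45281 probes). It was the only one of the 10 member probes called in the fit on all probes, where 3.50% of probes were called. The main probe had the larger SE. The second probe was dim, with an oral tissue mean of 7.15 where the median of all values was 7.01. Its signal over background was not measured, so its small SE describes the signal and not the transcript. With no mean-variance trend in limma its adjusted p was 0.0222. The call did not hold without both arrays of litter 1 (0.28, adjusted p = 0.076) or of litter 2 (0.30, adjusted p = 0.0548). The mean of both probes differed by 0.29 (adjusted p = 0.0724).

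Smad6, the feedback inhibitor of BMP receptors whose promoter carries the palindrome shown above, had 8.10, 7.93 and 7.92 in tooth germ and 7.72, 7.90 and 7.67 in oral tissue. The groups did not overlap, though the nearest arrays, tooth germ 3 and oral tissue 2, were 0.01 apart. The mean was 7.98 ± 0.104 in tooth germ and 7.77 ± 0.122 in oral tissue (SD, n = 3 each), a difference of 0.22 or 1.16-fold (SE 0.0823, 95% interval 0.04 to 0.40, adjusted p = 0.186). It was positive in all 3 litters, at 0.38, 0.02 and 0.24, and stood at 0.13 without litter 1 (adjusted p = 0.678). Id3 and Smad6 were the 2 of 7 members whose main-probe groups did not overlap, with tooth germ above, a pattern shown by 11.9% of all genes.

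Smad7, the inhibitor shared by BMP and TGF-beta signals, had 6.84, 6.79 and 6.79 in tooth germ and 6.79, 6.80 and 6.74 in oral tissue, a difference of 0.03 (SE 0.0256, 95% interval -0.03 to 0.08, adjusted p = 0.652). Bambi, the pseudoreceptor, had 6.85, 6.97 and 6.98 in tooth germ and 6.94, 6.92 and 6.88 in oral tissue, a difference of 0.02 (SE 0.0387, 95% interval -0.06 to 0.11, adjusted p = 0.847). The groups overlapped for both. Both means lay below 7.01, the median of all values in the table, near the lower end of a scale whose lowest value is 6.61. Whether these probes stood above background was not measured here, so the narrow intervals describe the signal and not the transcript.

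**Figure D2:**
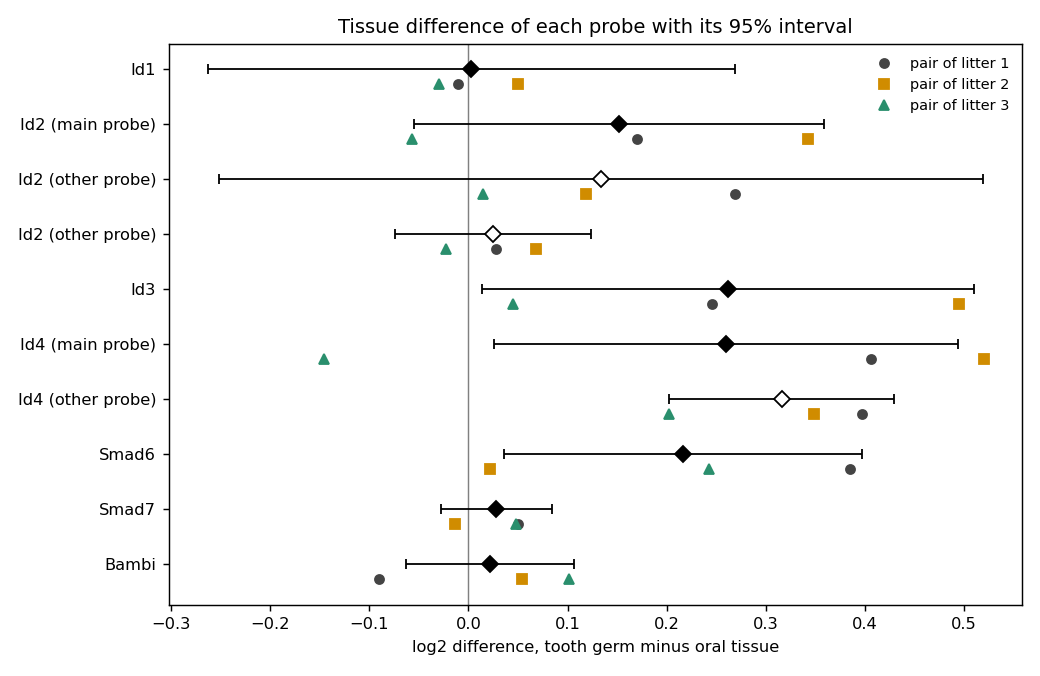
Log2 difference of each probe, tooth germ minus oral tissue, with its 95% interval from limma (filled diamonds are main probes in the fit on genes, open diamonds other probes in the fit on all probes) and, below each, the difference within each litter. The interval of the second Id4 probe lies between 0.20 and 0.43, and that of Id1 is centred near 0.

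Litter 2 gave the highest within-litter difference for all 4 Id genes at their main probes and litter 3 the lowest. For Id1 that order rests on differences of at most 0.05. Other probes of the same genes did not all follow that order, since litter 1 was highest at the second Id2 probe (0.27, 0.12 and 0.01 in litters 1, 2 and 3) and at the second Id4 probe (0.40, 0.35 and 0.20). Smad6 and Smad7 instead had their lowest difference in litter 2, at 0.02 and -0.01. Osteoblast markers were also lowest in litter 2, the reverse of the Id genes, and were measured in oral tissue although its label excludes bone. Ibsp, a bone matrix gene, had 12.70, 10.88 and 12.96 in tooth germ arrays 1, 2 and 3, against 12.13, 13.35 and 11.62 in oral tissue arrays 1, 2 and 3. It was therefore higher in tooth germ in litters 1 and 3 and lower there in litter 2, with a log2 difference of -2.47. The mean of the 5 osteoblast markers measured differed by 0.55, -0.97 and 0.71 in litters 1, 2 and 3, and all 5 were lower in the tooth germ of litter 2. None of the 5 was called by limma, and 1 had an unadjusted p under 0.05, where 0 of 6 cartilage markers were called and 1 had such a p. Other marker lists went either way in litter 2. Its mean difference was the highest of the 3 litters for skeletal muscle (-1.34), neurons and glia (-0.59) and macrophages (-0.35), as for the Id genes. For cartilage it was the lowest (-0.10). The part of bone or other tissue in the Id values was not tested. Leaving out litter 2, the highest for the Id genes, must lower their differences, so the fall is no separate result. Without it the limma differences were 0.06 for Id2, 0.15 for Id3 and 0.13 for Id4 (adjusted p = 0.882, 0.586 and 0.700). That of Smad6 was 0.31 (adjusted p = 0.129).

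**Figure D3:**
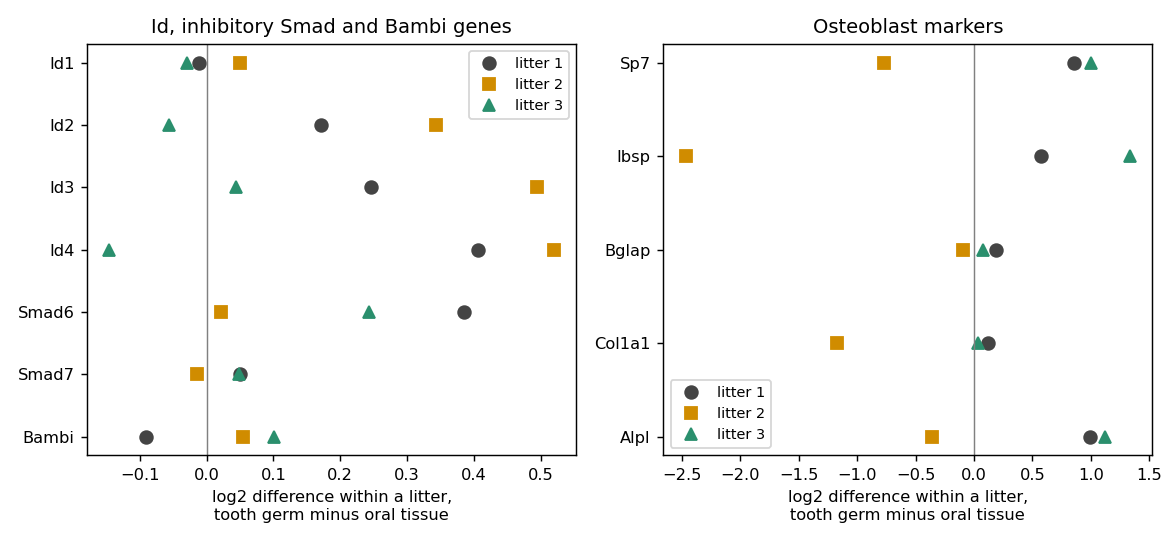
Log2 difference between tooth germ and oral tissue within each litter, for the main probes of the 7 genes (left) and for 5 osteoblast markers (right, on a wider scale). Litter 2 has the highest difference for each Id gene and the lowest for each osteoblast marker.

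The surrounding pathway was read from lists chosen with earlier results of these data known, and their counts stand beside the 5.81% of all genes called. Of 15 BMP ligands and receptors, 0 rose, 1 fell and 14 were not called (median difference -0.0034). The gene that fell was Bmpr1b, a type I receptor, with 7.54, 7.38 and 7.33 in tooth germ and 8.35, 7.94 and 8.04 in oral tissue (difference -0.69, SE 0.102, adjusted p = 0.0015). With litter as a block a second gene of this list, the ligand Bmp4, was called higher (adjusted p = 0.0434). It was chosen for mention after its value was seen.

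Secreted modulators of BMP were called in both directions. Of 9 measured modulators 4 rose, 2 fell and 3 were not called (median 0.02), while of 12 Smad transducers and intracellular regulators 0 were called and 2 had an unadjusted p under 0.05 (median 0.02). Whether these shares differ was not tested. Sostdc1, an antagonist of BMP and Wnt, was higher by 0.94 (limma adjusted p = 8.2e-05). Fst, which binds activin and BMP ligands, and Bmper, which binds BMP ligands, were each higher by 0.73 (adjusted p = 0.0015 and 5.9e-04). Chrd, a BMP antagonist, fell by 0.77 (adjusted p = 0.0015). In the intracellular list the smallest p-values belonged to Skil, a repressor of Smad complexes, and Zeb2, a Smad-binding repressor. The difference of Skil was 0.30 (limma adjusted p = 0.0533, and 0.0225 with litter as a block). That of Zeb2 was 0.25 (adjusted p = 0.170).

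Other genes known as BMP targets moved in both directions. Of 11 measured, 3 rose, 2 fell and 6 were not called (median 0.12). Msx1 had 12.67, 12.66 and 12.36 in tooth germ and 10.78, 11.41 and 11.09 in oral tissue, a 2.77-fold difference whose 95% interval of 1.17 to 1.78 on the log2 scale lay above the interval of each of the 7 members. Hey1, a helix-loop-helix repressor, was higher by 0.43 (SE 0.0918, adjusted p = 0.0153), a call held in 15 of 19 alternatives and lost with litter 1, either array of litter 1 or tooth germ array 2 left out (highest adjusted p = 0.244). The zinc-finger factors Gata2 and Gata3 fell by 0.53 and 0.61 (adjusted p = 0.0079 and 0.0038), and the call of Gata2 was lost without litter 1 or litter 2 (highest adjusted p = 0.0892). Of 6 TGF-beta target genes measured 1 rose, 1 fell and 4 were not called (median 0.07). Ccn2, a matricellular gene, was higher by 0.68 and Tgfbi, a matrix adhesion gene, fell by 0.53 (adjusted p = 0.0041 and 0.0423). The call of Tgfbi was held in 7 of 19 alternatives (adjusted p from 0.0018 to 0.197) and that of Ccn2 in 18 of 19, the exception being litter 3 left out (adjusted p = 0.0605).

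E proteins, the direct partners of Id proteins, were listed together with tissue-specific factors that pair with them. Of 15 E proteins and tissue-specific basic helix-loop-helix factors 0 rose, 6 fell and 9 were not called (median -0.25). Among the 3 E proteins, named here after their values were seen, Tcf4 was lower in tooth germ, with a log2 difference of -0.49 (SE 0.0701, adjusted p = 0.0012), although its call was lost when all its probes were averaged (adjusted p = 0.144). Tcf3 and Tcf12 were not called, with differences of 0.06 and 0.09 (adjusted p = 0.741 and 0.802). The other 5 genes that fell are tissue-specific factors. Msc, a factor of pharyngeal muscle precursors, had 8.95, 8.99 and 8.90 in tooth germ and 11.15, 10.62 and 10.93 in oral tissue (difference -1.95, SE 0.117, adjusted p = 7.5e-06). Myog, a muscle differentiation factor, fell by 1.54 and Myod1 by 1.47 (adjusted p = 1.6e-05 each), and Twist2, a mesenchymal repressor, fell by 0.78 (adjusted p = 3.2e-04). Msc, Myog and Myod1 belong to the skeletal muscle lineage, whose marker list was lower in tooth germ as given above. That list itself includes Myog and Myod1, so its fall is not independent of theirs.

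**Figure D4:**
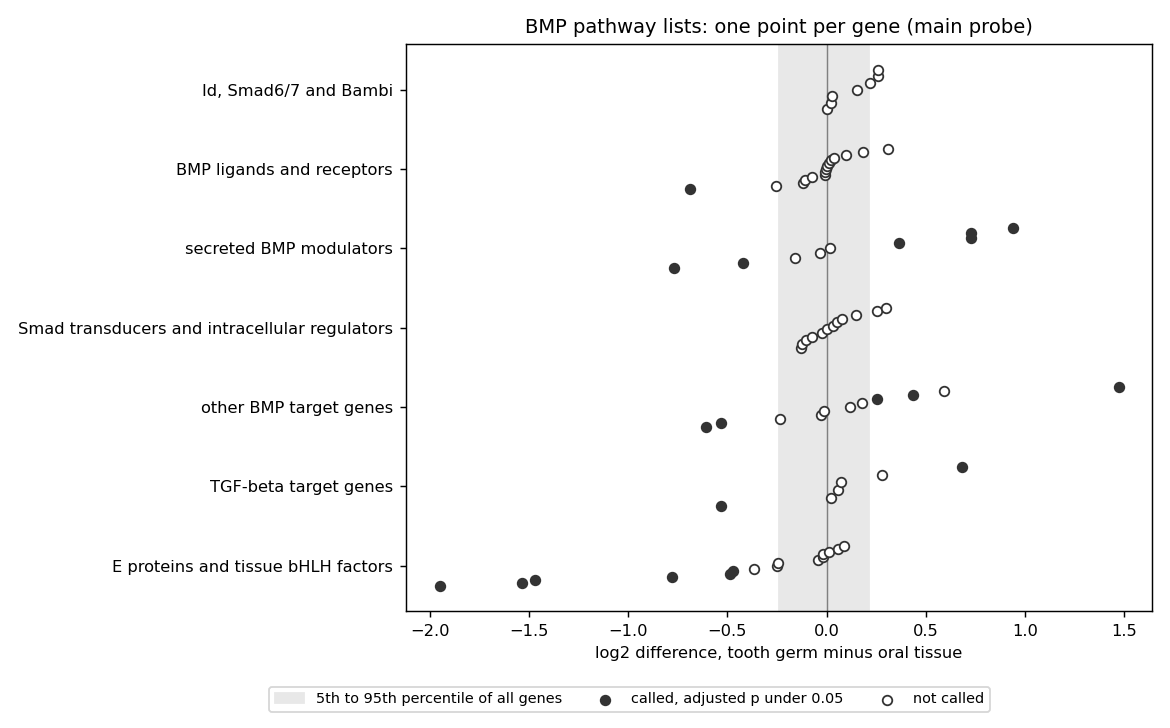
Log2 differences, tooth germ minus oral tissue, of the 7 genes and of the genes of 6 pathway lists, 1 point per gene; filled points were called and the grey band holds the 5th to 95th percentile of all genes, -0.24 to 0.21. The 7 genes lie between 0.0031 and 0.26, none of them called.

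Id3 had the largest difference among the main probes. All 7 means were higher in tooth germ, as were those of 51.8% of all genes, but the signs of Id1, Smad7 and Bambi rest on differences of at most 0.03. The genes whose profiles over the 6 arrays lay nearest to that of Id3 were Ddx51, an RNA helicase, Timm10, a mitochondrial import chaperone, Spred1, an inhibitor of Ras and ERK signalling, and Setd7, a lysine methyltransferase. Their root mean square distances from Id3, after centring each gene on its own mean, were 0.0504, 0.0546, 0.0549 and 0.0556 on the log2 scale, among 11797 genes whose mean was above the median signal, leaving out predicted and clone-named genes. Their differences between the tissues ran from 0.23 to 0.29, and 0 of the 4 were called. Values near those of Id3 follow from the choice by profile and are no separate result. No BMP pathway gene of the lists was among them, which says little with 4 places among 11797 genes.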

How the data were processed

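RNA of 6 samples was measured on Illumina bead arrays of 1 colour. The authors deposited 1 log2-scale signal for each probe and array. Their processing, per the submitters' notes, used lumi 2.8.0. Plain log2 and a variance-stabilised form close to it could not be told apart from the sources used here, and both may understate differences of dim genes. Once sorted, any pair of arrays matched to within 0.000827, which means that the deposited table was already quantile normalized. Detection p-values and slides were not used here, so background correction and slide were not varied.

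Of 45281 probes, 34885 had 1 gene symbol, 18 several and 10378 none in the platform annotation. The comparison used limma (version 3.58.1, under R 4.3.3; lmFit, eBayes with trend, two-sided, 4 residual degrees of freedom), with Benjamini-Hochberg adjustment. It was also run on simulated data, which had no litter effect and so cannot check the fit for paired arrays. P-values measure the spread between pooled samples.

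Same-numbered arrays share a litter per the labels; deviations from group means correlated at 0.413, 0.233 and 0.266 within pairs over 9528 genes, so the numbers pair the arrays. The reported fit has no block.

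The members and lists were chosen with earlier results of these data known. Named genes were the members with all probes, up to 4 called genes of each list by size (the 2 of smallest p where none was called), the 4 profiles nearest to the member with the largest difference in each direction, and Msx1, Shh, Myod1 and Actc1. Listed genes for which no such probe was found are left out. Alternatives covered pairing, normalization, dim genes, probe choice, variance shrinkage, array weights, a stricter threshold and left-out arrays or litters.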

Additional observations from a re-analysis of the deposited data

How the results depend on the processing

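The call of 0 of 7 members held in 18 of 19 alternatives at the main threshold, and at an adjusted p under 0.01. The exception was leaving out litter 3, where Id4 was called (0.46), so the count ran from 0 to 1 over left-out arrays and litters. With the replicate block (litter) Id3 came nearest (difference 0.26, adjusted p = 0.0941), and no member call changed. Id1 and Bambi turned sign without being called. Id1 stood at -0.08 with array weights and between -0.11 and 0.12 over left-out arrays and litters, and Bambi between -0.02 and 0.08. Over the same left-out sets Id2 ran from 0.06 to 0.26, Id3 from 0.12 to 0.37, Id4 from 0.13 to 0.46 and Smad6 from 0.13 to 0.31. The second Id4 probe, whose alternatives were chosen after seeing the data, ran from 0.28 to 0.37, and the number of member probes called from 0 to 2. Over all genes 1693 were called with the replicate block, 601 at an adjusted p under 0.01, and 549 to 1025 with arrays or litters left out, against 1107 in the reported fit. Removing Smad7 and Bambi as dim genes left no value for them in that alternative.

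Counts of called genes in the lists moved by up to 3. BMP ligands and receptors had 2 called, against 1, with the replicate block, litter as a random effect, robust shrinkage and array weights, and 1 to 2 with arrays or litters left out. Smad transducers and intracellular regulators had 1 called, against 0, with the replicate block, litter as a random effect, dim genes removed, no mean-variance trend, robust shrinkage and array weights, and 0 to 1 with arrays or litters left out. TGF-beta target genes, of which 2 were called, had 3 called with the replicate block and with litter as a random effect. They had 1 called with the mean of all probes, every probe tested on its own, no trend, robust shrinkage and array weights. With arrays or litters left out 0 to 2 were called. Other BMP target genes, of which 5 were called, ran from 2 to 5 with arrays or litters left out, the lowest being without litter 1. They had 6 called with the replicate block and with litter as a random effect. Secreted modulators, of which 6 were called, ran from 4 to 6 over all alternatives, and E proteins and tissue factors, of which 6 were called, from 5 to 8. Signal over background was not measured, so low values of Smad7 and Bambi cannot be read as absence.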
